A study of Mus musculus with 2 samples.

Results

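The Shh-expressing matrix cells are the hair follicle cells in which at least 2 UMIs (unique molecular identifiers, counts of captured mRNA molecules) of Shh were found and in which the keratins and shaft genes of the differentiating layers were low. They were chosen among droplets with 2000 to 60000 UMIs, 1000 to 8000 genes and at most 20% mitochondrial UMIs. A cell was kept where Krt71, Krt25, Krt27 and Krt73, keratins of the inner root sheath (IRS), together stayed under 20 UMIs per 10000. The sums of Krt31, Krt32, Krt82, Krt86, Dsg4 and S100a3, genes of the cortex and cuticle, and of Krtap8-1, Krt90, Crtac1 and Mt4, genes of the medulla, each had to be under 5 UMIs. The rule found 1245 cells among 16453 droplets, of which 609 of 8661 were in the WT library and 636 of 7792 in the library labelled PADI4 cKO. These were 7.03% (exact 95% binomial interval 6.50 to 7.59) and 8.16% (7.56 to 8.79) of the droplets. All intervals given here cover counting error only, and since Shh itself chose the cells, the differences from other droplets are a description and carry no test.

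Single-cell RNA sequencing was performed on tdTomato-positive epithelial cells sorted from the dermal fraction of mouse back skin at postnatal day 1 (P1), after the epidermis had been peeled off. The WT library carries the genotype label WT, and the other carries PADI4 cKO, in which K14-Cre, active in basal keratinocytes, removes the floxed Padi4 alleles (Padi4 fl/fl). The protocol text of both samples names K14-Cre Padi4 fl/fl mice, so what the WT animals carried beside the tdTomato reporter is not settled by the labels. There is 1 library per genotype, both are placed in batch 1 by their labels, and the number and sex of the animals are not given, so genotype, library and animal cannot be told apart.

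Sonic hedgehog, encoded by Shh, is a secreted, lipid-modified protein made on the rim of the growing hair bulb, where epithelial matrix cells divide around the dermal papilla. The ligand binds Patched receptors, which relieves their hold on Smoothened and lets Gli transcription factors act in the responding epithelium and mesenchyme. Wnt, BMP and ectodysplasin signals meet in the same cells during placode formation and later in the matrix that feeds the hair shaft and the IRS.

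The WT library held 143938990 UMIs and the library labelled PADI4 cKO 143945294 UMIs, empty droplets included. The Shh-expressing cells were deeper than the other droplets, with medians of 16877 against 13885.5 UMIs per cell in WT and 18954 against 15391.5 in the library labelled PADI4 cKO. Sex was not balanced between them. Of the Shh-expressing cells, 25.8% in WT and 99.7% in the PADI4 cKO library had Xist but no counts of Uty, Eif2s3y and Kdm5d, genes of the Y chromosome, and 60.4% and 0% had the reverse. Padi4, the targeted gene, had 5 UMIs in the WT and 4 in the PADI4 cKO Shh-expressing cells, or 0.446 and 0.296 UMIs per 1000000 (CPM), against 0.898 and 0.765 CPM in the other droplets, so Padi4 counts did not tell the libraries apart. Whether the counted 3′ end lies in the deleted part is not given in the sources used here. The libraries shared 17 barcodes among the filtered droplets and 0 among the Shh-expressing cells, and Scrublet called 8.54% and 7.39% of the Shh-expressing cells as doublets against 3.91% and 3.91% of the other droplets.

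Of the filtered WT droplets, 1639 had at least 1 Shh UMI and 1053 at least 2, and the PADI4 cKO numbers were 1805 and 1216. The medulla limit removed 361 of those 1053 (34.3%) and 512 of those 1216 (42.1%), the IRS limit 75 and 59, and the cortex and cuticle limit 43 and 64, with some droplets over several limits. The median Shh-expressing cell held 5 Shh UMIs in each library, and the richest held 38 and 33. Just inside the rule, the 118 WT and 137 PADI4 cKO cells with 2 Shh UMIs held Scube1 at 50.8 and 46.0 CPM. Just outside, the 371 and 345 cells with 1 Shh UMI under the same keratin limits held it at 21.7 and 20.9 CPM. Scube1 was thus lower on the outer side of the threshold and there stayed above the 9.18 and 10.2 CPM of all other droplets. Wnt10b and Ascl4 were also lower on the outer side in both libraries. Nr4a3 and Tnf were lower there only in the library labelled PADI4 cKO. In WT they were higher there, with Nr4a3 at 4.09 CPM against 2.42 CPM inside and Tnf at 9.81 CPM against 7.26 CPM.

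Free Shh mRNA in the suspension could add few UMIs to a Shh-expressing cell. Empty droplets carried Shh at 56.6 and 59.4 CPM, above the 27.8 and 35.4 CPM of the other filtered droplets. Free RNA made up at most 11.6% and 7.17% of a droplet, which allows up to 0.111 and 0.081 free Shh UMIs per Shh-expressing cell. In the cluster led by Lmo3 and Lrrn3, outer root sheath (ORS) genes, 2.83% of the WT cells (median 13915 UMIs) and 2.90% of the PADI4 cKO cells (13407 UMIs) had a Shh UMI, and 0.405% and 0.725% had 2 or more. In the cluster led by Nr4a3 and Zfp423, described further on, 90.5% and 93.1% had a Shh UMI and 80.7% and 83.9% had 2 or more. Droplets with 50 or more fibroblast UMIs numbered 13 in each library, of which 1 and 0 held a Shh UMI. Droplets with 20 or more UMIs of the epidermal keratins Krt1 and Krt10 numbered 34 in WT and 4 in the library labelled PADI4 cKO. Of these, 1 and 0 held a Shh UMI, and the WT droplet held 2 or more and counts among the Shh-expressing cells.

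The named markers of these cells are Shh, Scube1, Wnt10b, Ascl4, Nr4a3 and Tnf, and all 6 were at more than 2-fold the level of the other droplets in both libraries. Shh summed to 333.4 CPM in the WT and 303.0 CPM in the PADI4 cKO Shh-expressing cells, against 27.8 and 35.4 CPM in the other droplets, which include the Shh-carrying droplets over the keratin limits. Scube1, whose secreted product belongs to a family that helps lipid-modified Hedgehog leave the producing cell, was at 113.2 CPM in WT against 9.18 CPM in the other droplets. In the library labelled PADI4 cKO the Scube1 values were 107.8 and 10.2 CPM, and the log2 ratios were 3.62 (3.51 to 3.74) and 3.40 (3.29 to 3.51). A Scube1 UMI was present in 51.7% and 50.3% of the Shh-expressing cells and in 4.88% and 5.80% of the other droplets. Scube1 thus marked the members in both libraries without being in each of them.

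Wnt10b, a Wnt ligand of the hair placode and matrix, was at 104.2 and 99.2 CPM against 20.0 and 22.4 CPM, with log2 ratios of 2.38 and 2.15. Ascl4, a basic helix-loop-helix transcription factor, was at 40.2 and 48.0 CPM against 6.99 and 9.12 CPM, with log2 ratios of 2.53 and 2.40. Tnf, which encodes the inflammatory cytokine, was at 28.7 and 38.3 CPM against 4.36 and 7.16 CPM, with log2 ratios of 2.72 and 2.42. Of 6 immune markers, Ptprc, Cd3e, Lyz2, Tyrobp and Cd207 were at 0 in the Shh-expressing cells of both libraries, and Cd74 was at 2.32 and 2.74 CPM against 0.357 and 0.513 CPM. Summed immune markers were also near 0 in the other droplets, at 0.391 and 0.530 CPM, and the part of immune cells in the Tnf values was not tested. Nr4a3, an orphan nuclear receptor and immediate early gene, was at 16.9 and 20.4 CPM against 1.96 and 2.42 CPM, which is 8.60- and 8.42-fold. It was also the rarest of the 6 markers, with a UMI in 14.8% and 15.7% of the Shh-expressing cells.

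With every droplet thinned to 2000 UMIs, which removes the difference in depth, the share with a Scube1 UMI was 18.7% and 19.0% in the Shh-expressing cells and 1.66% and 1.41% in the others. For Wnt10b these shares were 22.5% and 18.4% against 3.28% and 3.77%. For Nr4a3 they were 2.30% and 2.99% against 0.410% and 0.349%. All 3 markers stayed apart from the other droplets at equal depth.

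**Figure D1:**
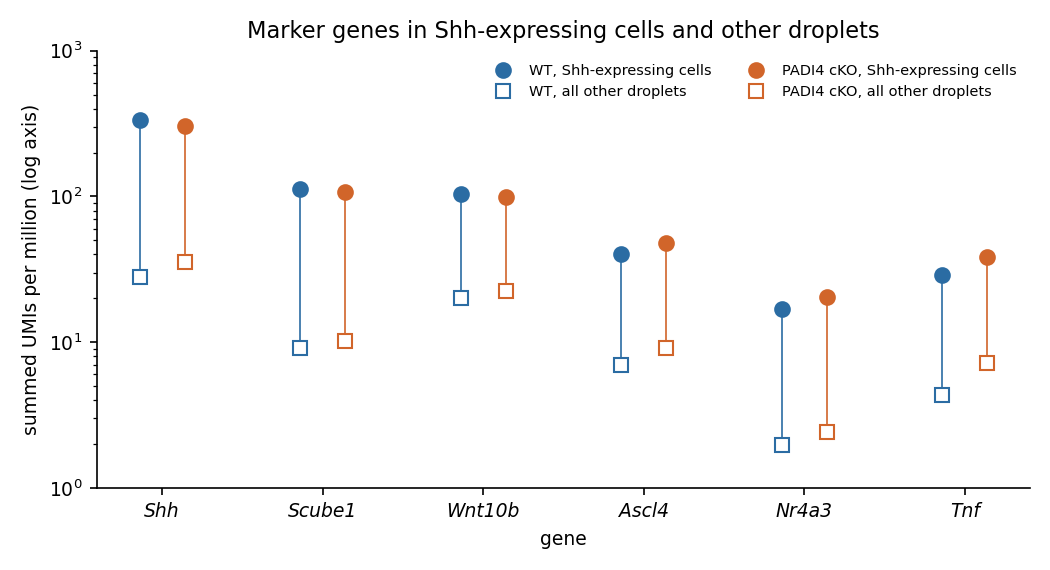
Summed CPM (log axis) of the 6 marker genes in the Shh-expressing cells (filled circles) and all other droplets (open squares) of the WT and PADI4 cKO libraries, 1 library each and hence without error bars. Every circle lies above its square, by 12.3-fold (WT) and 10.5-fold (PADI4 cKO) for Scube1 and by 5.22- and 4.43-fold for Wnt10b.

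Promoters are shown for 3 genes that the results below turn on, Nr4a3 and Sp5, which mark different clusters of Shh-expressing cells, and Edar, the ectodysplasin receptor. The windows hold the 250 bases before the start and come from RefSeq, build GRCm38.p6, which matched 13 of 15 genes looked up and 5 of the 6 markers. Capitals mark matches of TGACGT, the core of the cAMP response element, and of CTTTGAT, the sequence bound by Tcf and Lef factors, both searched on both strands together with GACCACCCA (Gli) and TGANTCA (AP-1). The windows are chr4:48045055-48045304 on the plus strand for Nr4a3, chr2:70474673-70474922 on the plus strand for Sp5 and chr10:58675697-58675946 on the minus strand for Edar, each written 5′ to 3′.
Nr4a3: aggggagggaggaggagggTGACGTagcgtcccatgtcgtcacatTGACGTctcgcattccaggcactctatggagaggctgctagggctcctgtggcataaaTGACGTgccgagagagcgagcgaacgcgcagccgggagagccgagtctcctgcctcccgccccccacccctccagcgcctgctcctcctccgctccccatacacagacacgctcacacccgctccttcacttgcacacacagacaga
Sp5: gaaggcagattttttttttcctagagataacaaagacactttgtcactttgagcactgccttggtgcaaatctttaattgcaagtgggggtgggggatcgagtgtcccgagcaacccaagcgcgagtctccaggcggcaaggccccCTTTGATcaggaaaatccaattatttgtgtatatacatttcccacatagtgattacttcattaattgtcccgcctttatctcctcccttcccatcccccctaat
Edar: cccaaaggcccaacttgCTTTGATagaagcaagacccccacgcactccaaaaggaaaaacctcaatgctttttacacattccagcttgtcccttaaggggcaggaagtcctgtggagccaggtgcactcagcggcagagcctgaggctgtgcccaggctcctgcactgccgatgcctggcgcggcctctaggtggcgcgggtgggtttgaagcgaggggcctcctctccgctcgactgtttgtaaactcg
TGACGT occurred 3 times before Nr4a3, and CTTTGAT once each before Sp5 and Edar. The windows of the other matched genes looked up, among them Lef1, Kremen2, Wnt10b and Scube1, held none of these motifs. Of all 32851 windows of the table, 6.47% held TGACGT, 3.21% CTTTGAT, 6.75% TGANTCA and 0.225% GACCACCCA. Of the 8745 matched genes among those compared against the other droplets, 12.2% held TGACGT, 2.78% CTTTGAT, 4.91% TGANTCA and 0.252% GACCACCCA. Of the 147 genes above 2-fold in both libraries, 109 were matched, and 6 of them (5.5%) held CTTTGAT, namely Disp1, Edar, Gm31727, Gm41168, Sp5 and Tnfrsf19. TGACGT and TGANTCA were also held by 6 each and GACCACCCA by 0. A match describes letters in a window and does not show a binding site.

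Against all other droplets, 11093 genes with enough UMIs were compared, and 147 (1.33%) were above 2-fold and 554 (4.99%) below 2-fold in both libraries. In each library by itself, 169 (1.52%) and 174 (1.57%) were above and 700 (6.31%) and 624 (5.63%) below. The median log2 ratio over all compared genes was -0.01 in each library. Genes for Hedgehog processing and release were on both sides in the Shh-expressing cells, and those of the co-receptors Gas1, Boc and Cdon were low. Of 5 genes for ligand processing and release, Scube1, Scube3 and Disp1 were above 2-fold, Scube2 was below and Hhat was within 2-fold, with list medians of 1.13 and 1.08. Disp1, which encodes the transporter that exports the lipid-modified ligand, was at 87.9 and 93.5 CPM against 40.2 and 44.3 CPM. Scube3 was at 33.5 and 31.3 CPM against 11.9 and 12.7 CPM, and Hhat, the enzyme that attaches palmitate to the ligand, at 10.6 and 10.4 CPM against 12.5 and 14.1 CPM. Scube2, of the same family, was at 1.52 and 5.34 CPM against 15.5 and 18.2 CPM, with log2 ratios of -3.32 (-4.14 to -2.68) and -1.76 (-2.13 to -1.43). The 3 family members were thus split, with Scube2 found mainly outside the Shh-expressing cells. Of the other Hedgehog ligands, Ihh had 1 and 3 UMIs in these cells and Dhh had 0 and 0.

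Among the receptor genes, Cdon, Boc, Gas1 and Hhip were below 2-fold. Ptch1, the main receptor and itself a target of the pathway, was at 564.2 and 619.3 CPM against 449.1 and 525.2 CPM, with log2 ratios of 0.33 (0.29 to 0.37) and 0.24 (0.20 to 0.27). Gas1, Boc and Cdon encode co-receptors that present the ligand to Patched. Gas1 was at 19.5 and 19.0 CPM against 91.9 and 76.1 CPM, and Boc at 29.2 and 26.5 CPM against 81.8 and 81.3 CPM. Hhip, a decoy that binds the ligand, had 15 UMIs in the Shh-expressing cells of each library, with log2 ratios of -2.40 (-3.29 to -1.72) and -3.38 (-4.27 to -2.70).

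None of the 5 transducer genes was past 2-fold, with medians of -0.05 and -0.10. Gli1, a transcription factor switched on by the pathway, was at 44.2 and 54.1 CPM against 37.5 and 47.6 CPM, and Gli2, its upstream activator, at 122.9 and 150.4 CPM against 192.4 and 224.6 CPM. Smo, the signal transducer held back by Patched, was level with the other droplets, with log2 ratios of 0.06 (-0.02 to 0.14) and -0.01 (-0.09 to 0.07). The Shh-expressing cells therefore carried Ptch1 and Gli1 mRNA at levels slightly above those of the other droplets. In Shh-zero cells with UMIs of both Lgr5 and Npr3, markers of the lower proximal cup, both genes were higher still, with Ptch1 at 845.5 and 888.1 CPM and Gli1 at 58.7 and 68.9 CPM.

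**Figure D2:**
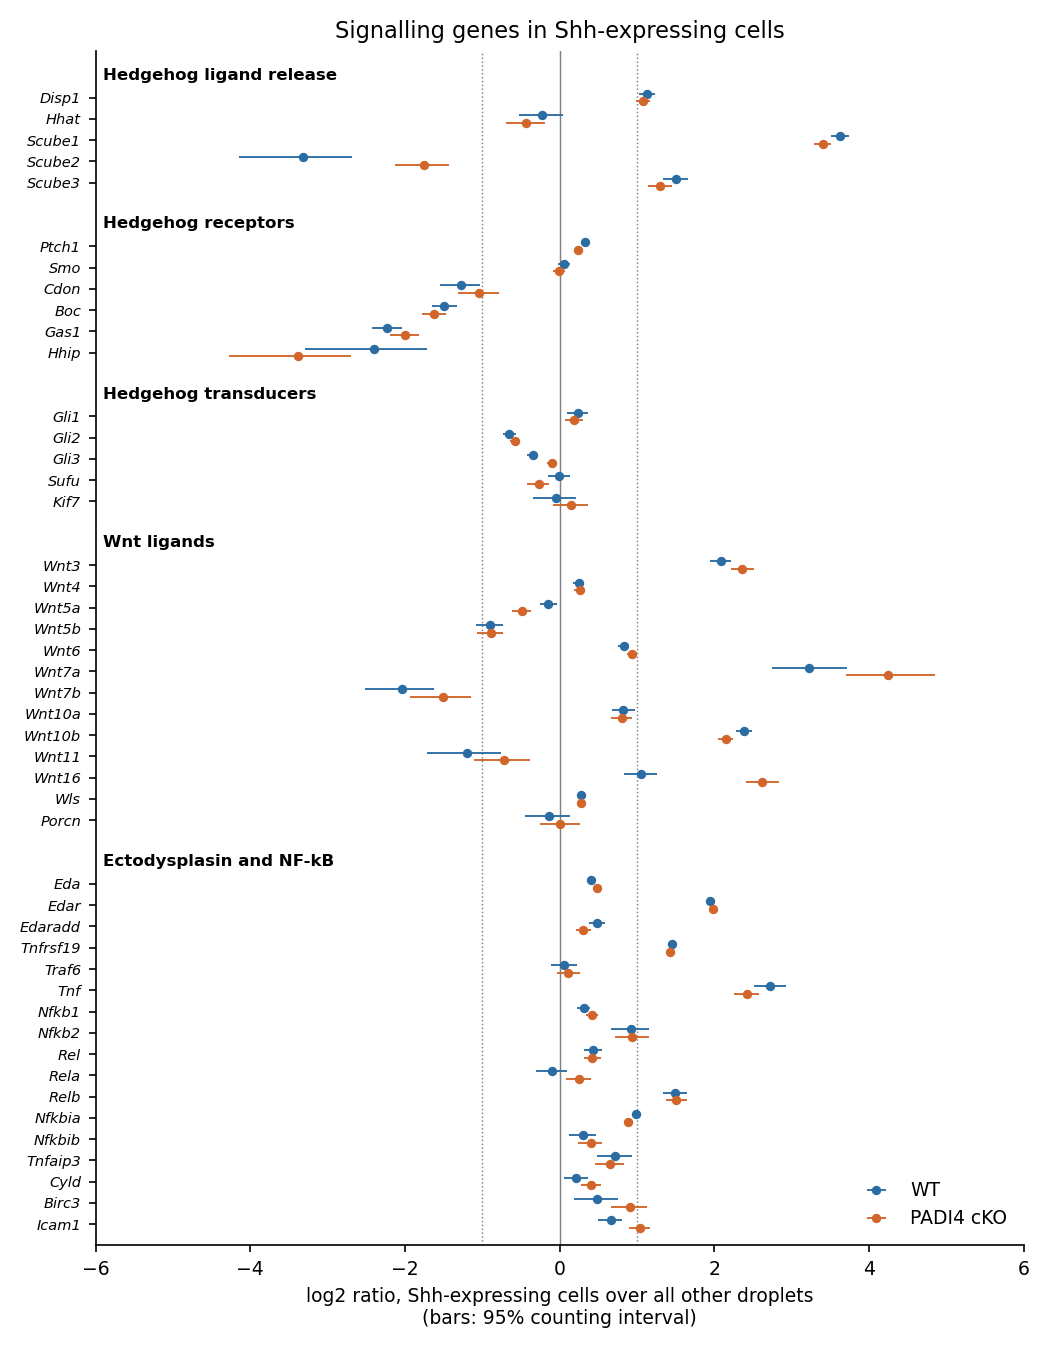
Log2 ratio of summed CPM in Shh-expressing cells over all other droplets of the same library, with 95% counting intervals, for compared genes of the Hedgehog release, receptor and transducer lists and the Wnt ligand and ectodysplasin and NF-kB lists. Dotted lines mark 2-fold. Scube1 (3.62 and 3.40) and Wnt7a (3.23 and 4.25) stand farthest to the right among the genes plotted, which leave out Shh itself, Scube2 and Hhip to the left, and the 5 transducers lie between the dotted lines.

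Some Wnt ligands were high in the Shh-expressing cells and others were not. Of 13 genes compared, which include Wls and Porcn of ligand secretion, Wnt3, Wnt7a, Wnt10b and Wnt16 were above 2-fold and Wnt7b below, with medians of 0.27 and 0.27. Wnt3 was at 48.6 and 45.1 CPM against 11.5 and 8.75 CPM, with log2 ratios of 2.08 and 2.36. Wnt7a was low everywhere, at 6.33 and 6.30 CPM against 0.673 and 0.328 CPM. Wnt16 was at 19.6 and 23.3 CPM against 9.49 and 3.79 CPM, with log2 ratios of 1.05 (0.83 to 1.26) and 2.62 (2.41 to 2.83), which were farther apart than the levels in the Shh-expressing cells. Wnt5b and Wnt11 were lower in the Shh-expressing cells, at 24.3 CPM against 45.5 CPM and 3.57 CPM against 8.31 CPM in WT. Wnt10a and Wnt6 stayed under 2-fold, with log2 ratios of 0.82 and 0.80 for Wnt10a and 0.83 and 0.94 for Wnt6.

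Of 18 genes of the Wnt response, Sp5, Nkd1, Notum and Kremen2 were above 2-fold and Tcf7l1, Lgr5 and Dkk3 below, with medians of 0.66 and 0.61. Sp5, a transcription factor and direct target of the pathway, was at 39.4 and 50.9 CPM against 3.75 and 4.75 CPM, with log2 ratios of 3.39 and 3.42. Kremen2, a receptor of the Dickkopf inhibitors, was at 119.5 and 110.5 CPM against 23.2 and 23.2 CPM. The feedback inhibitors Nkd1 and Notum had log2 ratios of 1.51 and 1.40 and of 1.43 and 1.04. Lef1, the transcription factor that marks cells committed to the hair shaft, was at 758.0 and 738.5 CPM against 405.0 and 415.2 CPM, just under 2-fold, and a Lef1 UMI was found in 97.0% and 97.0% of the Shh-expressing cells against 50.5% and 52.0% of the others. Lgr5, an R-spondin receptor of the lower progenitors, was at 81.6 and 112.1 CPM against 271.6 and 301.1 CPM, and Tcf7l1, a repressive factor of follicle stem cells, at 79.2 and 69.4 CPM against 222.3 and 212.7 CPM.

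Among 15 BMP genes, with medians of -0.07 and -0.08, the ligands Bmp2 and Bmp4 were above 2-fold and Sostdc1 and Id4 below. Bmp2 was at 119.7 and 120.4 CPM against 23.2 and 24.7 CPM, with log2 ratios of 2.37 and 2.29, and was found in 63.5% and 63.1% of the Shh-expressing cells against 13.5% and 13.8% of the others. Bmp4 was at 126.3 and 125.0 CPM against 41.3 and 48.9 CPM. Sostdc1, a secreted antagonist of BMP and Wnt signals, was at 50.6 and 39.3 CPM against 238.6 and 181.0 CPM. The ligand genes Bmp2 and Bmp4 were thus high in this group of cells, while Sostdc1 lay mostly outside them.

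Of 17 ectodysplasin and NF-kB genes, 4 were above 2-fold and 0 below, with medians of 0.48 and 0.65. Edar, the ectodysplasin receptor, was at 280.8 and 331.6 CPM against 72.5 and 84.0 CPM, with log2 ratios of 1.95 and 1.98, and was found in 81.4% and 86.0% of the Shh-expressing cells against 33.2% and 37.2% of the others. Tnfrsf19, a related receptor, was at 457.8 and 480.8 CPM against 167.0 and 178.4 CPM. Relb, an NF-kB subunit, was at 41.8 and 45.0 CPM against 14.9 and 15.8 CPM, and Tnf, a target of NF-kB, completed the set. Eda, the ligand, was within 2-fold, at 542.4 and 639.9 CPM against 409.4 and 458.6 CPM.

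Transcription factors of the matrix mostly stayed near the level of the other droplets. Of 25 compared, Ascl4 was above 2-fold, and Sox9, Barx2 and Prdm1 were below, with medians of 0.19 and 0.07. Sox9, a factor of the ORS and its stem cells, was at 64.9 and 55.9 CPM against 228.4 and 213.5 CPM. Barx2 was at 91.3 and 70.0 CPM against 387.1 and 345.3 CPM. Msx2, a homeobox factor of the matrix, had log2 ratios of 0.09 (0.00 to 0.18) and 0.10 (0.02 to 0.17).

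Of 23 immediate early genes, Nr4a3 alone was above 2-fold, with list medians of -0.38 and -0.28. Fos was at 104.8 and 162.2 CPM against 175.7 and 240.7 CPM, and Egr1 at 97.9 and 142.4 CPM against 204.1 and 245.3 CPM. Genes of this list also respond to tissue dissociation, whose part in the Nr4a3 values was not tested. Of 16 other secreted factors, 0 were above and 7 were below 2-fold (Pdgfb, Vegfa, Tgfb3, Edn2, Sema3e, Slit2 and Slit3). Of 10 Notch genes, 0 were above and Dll1 was below, and of 6 D cyclins and CDK inhibitors 0 were past 2-fold either way. Padi3 was below 2-fold with 16 and 11 UMIs, and Padi4 had too few UMIs to be compared.

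Outside these lists, the genes highest above the other droplets were Cnr1, Thsd7b, Frem1, Tub, Zfp423, Syt16, Cabp1, Galnt12, Tspan15, Limch1 and Cemip, which stood with Scube1, Sp5, Wnt7a and Nr4a3 among the 15 highest. Thsd7b, which encodes a thrombospondin repeat protein, was at 41.3 and 50.9 CPM against 3.28 and 2.94 CPM, with log2 ratios of 3.65 and 4.11. Frem1, an extracellular matrix protein of the epidermal basement membrane, was at 54.8 and 73.1 CPM against 6.37 and 8.12 CPM, with log2 ratios of 3.11 and 3.17. Cnr1, the cannabinoid receptor, had the highest ratios, 3.88 (3.16 to 4.63) and 4.46 (3.92 to 5.04), but rested on 40 and 98 UMIs. Limch1, an actomyosin regulator, was at 29.7 and 36.0 CPM against 5.23 and 3.45 CPM, and Cemip, a protein of hyaluronan breakdown, at 10.4 and 15.8 CPM against 1.89 and 1.87 CPM. These genes were found in a minority of the Shh-expressing cells, with a Thsd7b UMI in 23.6% and 26.7%, a Frem1 UMI in 29.9% and 39.3% and a Limch1 UMI in 16.6% and 18.6%.

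The 10 lowest genes were Col3a1, Zfpm2, Plce1, Vsnl1, Acta2, Krt6a, Rnase12, Gpnmb, Cstdc5 and Krt19. They belong to other cells of the sample, among them Col3a1 of fibroblasts, with 1 UMI in the Shh-expressing cells of each library, Krt6a of the companion layer, with 4 and 0 UMIs, and Acta2, a contractile actin, at 1.52 and 1.85 CPM against 29.6 and 22.0 CPM. Of 14 marker lists of cell types, 10 were lower and 4 higher in the Shh-expressing cells than in the other droplets of both libraries, and the rule itself limits cortex, cuticle, medulla and some IRS genes. The 4 were those of the IRS, the lower proximal cup, immune and endothelial cells. Summed ORS markers were at 2471 and 2351 CPM against 5795 and 5069 CPM, upper follicle markers at 218.6 and 221.9 CPM against 581.2 and 556.0 CPM, and fibroblast and papilla markers at 44.3 and 57.6 CPM against 114.6 and 117.7 CPM, with Corin at 0 in both libraries. Markers of the lower proximal cup were at 934.1 and 1073 CPM against 802.2 and 921.7 CPM. Most of this sum was Ptch1, at 564.2 and 619.3 CPM, and Edar, at 280.8 and 331.6 CPM. Lgr5 and Npr3, the other genes of this list, were lower than in the other droplets. Lgr5 was at 81.6 and 112.1 CPM against 271.6 and 301.1 CPM, and Npr3 at 7.49 and 10.4 CPM against 9.04 and 11.3 CPM. Melanocyte markers were at 97.9 and 99.5 CPM against 119.5 and 124.6 CPM, and endothelial markers at 3.12 and 1.56 CPM against 1.14 and 1.30 CPM with Cdh5 at 0. The IRS markers, of which the rule limits only some, were at 792.1 and 733.6 CPM against 675.7 and 602.7 CPM, and most of this sum was Krt28, at 616.1 and 561.8 CPM. The part of these cells in the results was not tested.

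The Shh-expressing cells fell mainly into a pair of clusters. With cells clustered on 1000 variable genes that left out the 6 markers, 371 of the 1245 cells fell into the cluster led by Nr4a3, Zfp423, Shh and Scube1, here called the Nr4a3 cluster, and 409 into the cluster led by Htr4, Cnr1, Wnt7a, Cabp1 and Sp5, here called the Sp5 cluster. The Nr4a3 cluster held 197 (32.3%, interval 28.6 to 36.2) of the WT and 174 (27.4%, 23.9 to 31.0) of the PADI4 cKO members. The Sp5 cluster held 176 (28.9%, 25.3 to 32.7) and 233 (36.6%, 32.9 to 40.5). A cluster led by Abca4 and Grhl3 held a further 52 and 34, and the rest were spread over clusters led by Gfra3 and Myb, by Bhlhe22 and Prr5l, by Crym, Fbp1 and Krt73, and others. The split was noticed in these data, and with other cluster resolutions the 2 largest clusters held 34.7% and 33.2% (resolution 0.5) or 30.6% and 18.6% (2.0) of all members. In the Nr4a3 cluster 58.6% and 51.9% of all cells were members, and in the Sp5 cluster 35.8% and 35.4%.

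**Figure D3:**
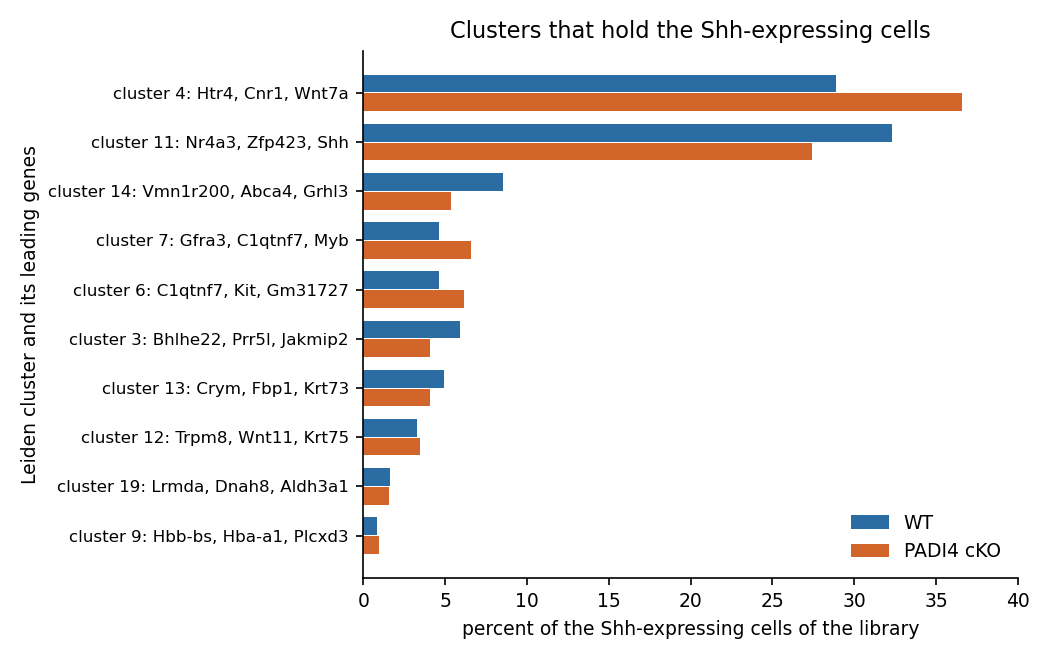
Percent of the Shh-expressing cells of each library that fell into each Leiden cluster, for the 10 clusters with the most of them, each named by its leading genes. The Sp5 cluster (cluster 4) and the Nr4a3 cluster (cluster 11) hold 28.9% and 32.3% of the WT cells and 36.6% and 27.4% of the PADI4 cKO cells, and the cluster with the next most cells over both libraries (cluster 14) 8.54% and 5.35%.

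Shh was highest in the Nr4a3 cluster. Per 10000 UMIs, the median member held 4.29 Shh UMIs in WT and 3.90 in the library labelled PADI4 cKO, against 2.68 and 2.55 in the Sp5 cluster and 2.16 and 1.76 in the other clusters. Summed Shh was at 495.4 and 481.5 CPM in the Nr4a3 cluster and at 273.1 and 283.3 CPM in the Sp5 cluster. Wnt10b followed the same order, at 177.4 and 172.7 CPM against 86.7 and 95.7 CPM. Scube1 differed less, at 159.8 and 142.6 CPM against 123.5 and 139.0 CPM, and so did Edar, at 372.8 and 420.3 CPM against 348.7 and 420.8 CPM. Nr4a3 itself was at 51.1 and 73.0 CPM in its cluster, and at 1.63 and 4.44 CPM in the Sp5 cluster and 4.19 and 3.29 CPM in the others. Tnf was at 56.3 CPM against 20.0 CPM in WT, and at 60.3 CPM against 43.7 CPM in the library labelled PADI4 cKO.

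Between the members of these clusters, 7992 genes were compared, and 90 (1.13%) were above and 463 (5.79%) below 2-fold in the Nr4a3 cluster in both libraries, as a description, since the clusters were built from these genes. Genes of the hair shaft lineage were on both sides. Of 21 matrix transcription factors compared, 4 were above 2-fold in the Nr4a3 cluster (Msx1, Dlx3, Dlx4 and Ovol1) and 6 below (Hoxc13, Runx1, Lhx2, Sox9, Vdr and Barx2). Lef1 was at 1296 and 1236 CPM against 414.2 and 512.6 CPM in the Sp5 cluster members, with log2 ratios of 1.64 (1.56 to 1.73) and 1.27 (1.20 to 1.34). Msx1, a homeobox factor, was at 123.2 and 151.9 CPM against 16.5 and 34.6 CPM. The IRS keratins Krt25, Krt27 and Krt28, the 3 of their list compared, were above 2-fold, while the shaft keratin Krt35 was below, with log2 ratios of -1.96 and -1.52. Krt28 was at 881.5 and 820.7 CPM against 114.9 and 152.1 CPM. The highest genes after Nr4a3 were Cldn10, a tight junction claudin, at 250.5 and 247.6 CPM against 11.9 and 18.5 CPM, and Dcn, which encodes the proteoglycan decorin, at 4165 and 3664 CPM against 246.3 and 302.2 CPM.

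Several lists were higher in the Sp5 cluster members. Of 7 ORS markers compared, 5 were below 2-fold in the Nr4a3 cluster (Krt15, Tbx1, Nfatc1, Sox9 and Krt17), as were 2 of 4 markers of the lower proximal cup (Lgr5 and Npr3) and 3 of 3 of the upper follicle (Lrig1, Plet1 and Krt79), and 0 were above. Of 12 secreted factors compared, 9 were below 2-fold in the Nr4a3 cluster and 0 above, with medians of -2.16 and -2.23 against -0.02 and -0.02 over all genes. Pdgfa, a growth factor for dermal cells, was at 1124 and 888.8 CPM in the Sp5 cluster members against 215.2 and 233.0 CPM, and Tgfb2 at 239.8 and 243.2 CPM against 54.5 and 48.5 CPM. Sema3c, a secreted semaphorin, was at 95.6 and 143.2 CPM against 12.7 and 12.4 CPM. Sox9 was at 95.6 and 83.6 CPM against 22.6 and 6.52 CPM, and Lgr5 at 134.9 and 164.9 CPM against 14.9 and 13.0 CPM. Lhx2, a factor of follicle progenitors, was at 809.5 and 803.8 CPM against 287.6 and 303.5 CPM, and Vdr, the vitamin D receptor, at 152.0 and 144.5 CPM against 20.4 and 29.2 CPM. Wnt signalling genes were on both sides, with Lef1, Axin2 and Myc higher in the Nr4a3 cluster and Sp5, Tcf7l1, Lgr5, Lgr6 and Dkk3 higher in the Sp5 cluster. Of the Hedgehog genes, Boc, Gas1 and Scube3 were past 2-fold, all higher in the Sp5 cluster, and Ptch1 was within 2-fold, at 802.5 and 800.9 CPM in the Sp5 cluster members against 439.3 and 467.2 CPM. Of the 17 ectodysplasin and NF-kB genes, 0 were past 2-fold either way in both libraries.

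**Figure D4:**
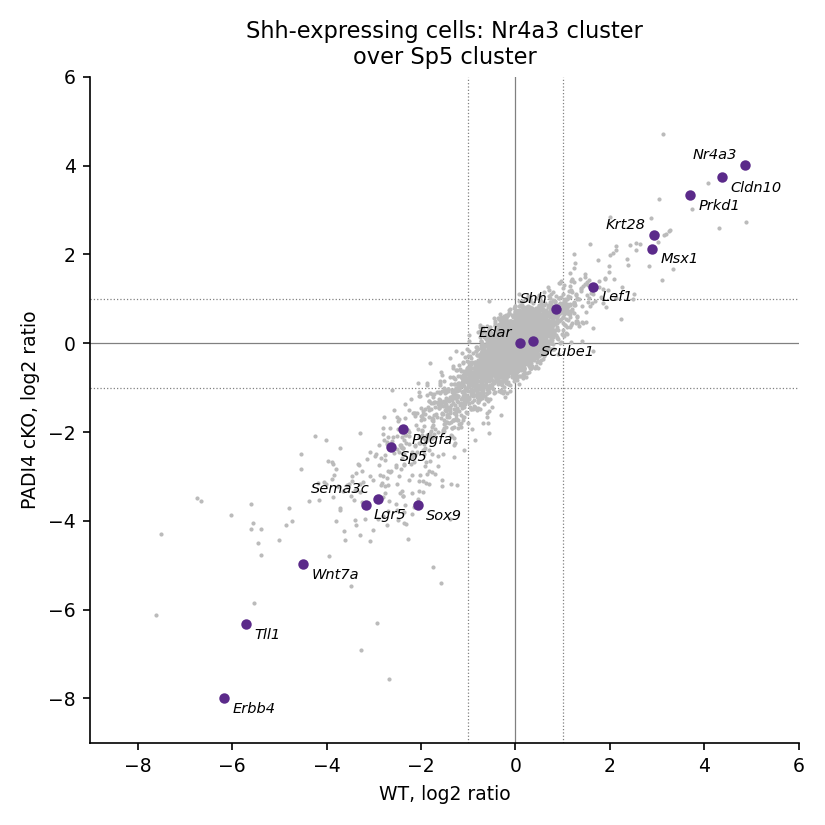
Log2 ratio of summed CPM in Shh-expressing cells of the Nr4a3 cluster over those of the Sp5 cluster, in WT (x axis) and in the library labelled PADI4 cKO (y axis), for 7992 genes (grey) with some named. Dotted lines mark 2-fold. Nr4a3, Cldn10, Krt28 and Msx1 lie at the upper right, Erbb4, Tll1 and Wnt7a at the lower left, and Scube1 and Edar near 0 on both axes.

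In single cells, UMIs of Nr4a3, Tnf or Ascl4 often occurred together with those of Sp5, Frem1 or Thsd7b. Ascl4 and Tnf were not past 2-fold between the clusters in both libraries, so such a cell is not shown to be of mixed cluster type. The overlap expected if these genes were independent was not worked out. A UMI of Nr4a3, Tnf or Ascl4 but none of Sp5, Frem1 or Thsd7b was found in 168 of 609 WT cells (27.6%) and 149 of 636 PADI4 cKO cells (23.4%). The reverse held in 93 (15.3%) and 74 (11.6%), both kinds were found in 182 (29.9%) and 273 (42.9%), and neither in 166 (27.3%) and 140 (22.0%). Shares of this kind grow with depth, which was higher in the library labelled PADI4 cKO.

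The markers followed the amount of Shh, as a description of the cells the rule chose. Cells with under 2 Shh UMIs per 10000 held Scube1 at 47.8 and 39.1 CPM, cells with 2 to 5 held it at 134.7 and 125.5 CPM, and cells with more at 213.3 and 255.8 CPM. Bmp2 went from 54.6 and 57.9 CPM in the lowest bin to 209.3 and 231.8 CPM in the highest, and Lef1 from 578.2 and 595.9 CPM to 1065 and 1063 CPM. Ptch1 ran the other way, from 639.5 and 692.0 CPM to 435.0 and 493.9 CPM, as did Myb, a factor of the dividing matrix, from 59.4 and 58.2 CPM to 19.5 and 28.2 CPM. Depth and cluster moved with the bins. Median UMIs went from 21624 and 23363 in the lowest bin to 13142 and 16222 in the highest, and the share in the Nr4a3 cluster from 14.8% and 12.6% to 52.7% and 50.7%, and their part in these values was not tested.

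The members were also set against cells of the same clusters with 0 Shh UMIs and the same keratin limits. In the 5 clusters that each held at least 5% of the Shh-expressing cells, 481 WT and 522 PADI4 cKO members were compared with 1060 and 965 Shh-zero cells, with each cluster weighted by its members. The Nr4a3 cluster had few Shh-zero cells, 29 and 21, so its part of the comparison is the least precise. Of 10303 genes, 95 (0.922%) were above and 21 (0.204%) below 2-fold in both libraries. Of the Wnt ligand list, Wnt3, Wnt7a, Wnt10a, Wnt10b and Wnt16, 5 of 11 genes compared, were above 2-fold and 0 below, with medians of 0.63 and 0.83 against 0.01 and 0.01 over all genes. Wnt3 was at 54.8 and 49.7 CPM in the members of these clusters against 15.6 and 10.1 CPM in their Shh-zero cells, and Wnt10a at 39.2 and 41.2 CPM against 14.6 and 12.2 CPM.

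Scube1 was at 120.7 and 119.4 CPM against 31.1 and 14.2 CPM, with log2 ratios of 1.93 (1.40 to 2.56) and 3.03 (2.43 to 3.90). Sp5 was at 47.5 and 59.8 CPM against 10.9 and 8.90 CPM, and Bmp2 at 130.9 and 135.4 CPM against 40.1 and 31.0 CPM. Foxq1 and Sox21, factors of hair shaft formation, Sema3e and the shaft keratin Krt35 were also above 2-fold. Sema3e and Krt35 were higher than in the Shh-zero neighbours but lower than in all other droplets together, where their log2 ratios were -2.29 and -2.50 and -1.80 and -2.12. The markers Ascl4, Nr4a3 and Tnf did not pass 2-fold in both libraries here, with log2 ratios of 0.29 (-0.20 to 0.85) and 1.55 (1.01 to 2.28) for Ascl4, 0.84 and 1.57 for Nr4a3 and 0.66 and 1.31 for Tnf. Ptch1 was slightly lower in the members, at 604.9 and 646.8 CPM against 627.3 and 725.5 CPM, with log2 ratios of -0.05 (-0.14 to 0.04) and -0.17 (-0.24 to -0.09), and the second value was 0.03 at a cluster resolution of 0.5. Edar was within 2-fold, with log2 ratios of 0.18 and 0.38.

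With genes of the rule left out, those highest above the Shh-zero cells were Tmem178, Limch1, Nptx2, Cnr1, Syt16, Thsd7b, Cacna1g, Ly6g6e, Wnt7a and Pld5. Wnt7a is also in the Wnt ligand list counted above. Tmem178 was at 9.44 and 8.21 CPM against 0.507 and 0.401 CPM, and Cacna1g, a T-type calcium channel subunit, at 9.67 and 9.67 CPM against 1.25 and 1.15 CPM. Among the 10 lowest were Fbn2, Prss35, Col14a1, Tepsin, Cyyr1, Me1, Nrip2, Vcan and Calm4. Col14a1, a collagen, was at 41.1 and 42.3 CPM against 116.3 and 120.9 CPM, and Vcan, the proteoglycan versican, at 34.2 and 48.1 CPM against 135.2 and 116.0 CPM.

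Most Shh-expressing cells carried genes of the cell cycle. With each cell thinned to 2000 UMIs, a UMI of Mki67 or Top2a was found in 65.4% (61.4 to 69.1) of the WT and 60.4% (56.5 to 64.2) of the PADI4 cKO members, against 46.0% and 42.0% of the other droplets. Shh-zero cells with UMIs of at least 2 of Myb, Gfra3 and Eda, genes of the dividing matrix, had 70.0% and 70.1%, and the Lgr5 and Npr3 cells 61.5% and 50.6%. The Nr4a3 cluster members had 64.0% (56.8 to 70.7) and 67.8% (60.3 to 74.7). The Sp5 cluster members had 59.7% (52.0 to 67.0) and 49.8% (43.2 to 56.4). No gene of the S phase list (42 compared) or the G2M list (52) was past 2-fold against the other droplets, and the list medians were 0.15 and 0.16 for S phase and 0.30 and 0.27 for G2M.

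The library labelled PADI4 cKO was then set against WT within the Shh-expressing cells, as values of 2 libraries with no replicate check and no test. Of 10594 genes, 167 (1.58%) were above a log2 ratio of 0.5 and 168 (1.59%) below -0.5, while counting error alone would place 0.324% and 0.301% past these limits. Over all members, none of the 6 markers was past 0.5. Shh was at 333.4 CPM in WT and 303.0 CPM in the library labelled PADI4 cKO, a log2 ratio of -0.14 (-0.20 to -0.07), and Scube1, Wnt10b, Ascl4 and Nr4a3 had ratios of -0.07, -0.07, 0.26 and 0.27. Tnf had the highest of them, 0.42 (0.21 to 0.62), and was 0.71 in the other droplets. By cluster, Tnf was 1.12 (0.74 to 1.52) in the Sp5 cluster, 0.10 (-0.20 to 0.40) in the Nr4a3 cluster and 0.21 (-0.26 to 0.70) in the others. Nr4a3 was 1.36 (0.12 to 3.03) in the Sp5 cluster, on 6 and 24 UMIs, and 0.51 (0.22 to 0.81) in its own cluster. The Shh share and level are bound to the rule, which counts Shh UMIs per cell, and the PADI4 cKO cells were deeper.

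The genes farthest apart between the libraries were mostly those of sex and of predicted or duplicated loci. Uty, Eif2s3y and Kdm5d, on the Y chromosome, had 826, 594 and 176 UMIs in WT and 0 in the library labelled PADI4 cKO, and Ddx3y had 351 and 4. Xist was at 325.2 and 1186 CPM and its antisense partner Tsix at 15.9 and 59.4 CPM. The predicted genes Gm10260, Gm21887, BC023719, Gm8797 and Gm11290 and Hmga1b, a near copy of Hmga1, can share reads with other loci and are uncertain as genes. Hmga1b was at 5.35 and 24.2 CPM, a log2 ratio of 2.17 (1.78 to 2.60), and 2.37 in the other droplets. Tmem232 and Tmem100 were higher in the library labelled PADI4 cKO, with log2 ratios of 2.62 and 1.66, and 2.43 and 1.13 in the other droplets. Cstdc5 and Stfa3, genes of the cystatin family, were lower, at 10.6 and 0.815 CPM for Cstdc5 and 31.7 and 0.222 CPM for Stfa3. Ly6d, a marker of differentiating upper epithelium, was at 33.0 and 12.3 CPM. Its log2 ratio was 6.88 when UMIs expected from empty droplets were subtracted, where sums that fell below 0 were set to 0. A ratio of this size can come from a sum set to 0, so it is not read as a reversal. The sex-linked genes, Hmga1b, Tmem232, Tmem100, Cstdc5, Stfa3 and Ly6d had the same direction in the other droplets.

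Some genes were farther apart between the libraries in the Shh-expressing cells than in the other droplets, and most of their UMIs lay in the Sp5 cluster. Pld5, a phospholipase D family gene, had 15 UMIs in WT and 98 in the library labelled PADI4 cKO, a log2 ratio of 2.40 (1.65 to 3.33) against -0.06 (-0.30 to 0.18) in the other droplets, and 14 and 97 of these UMIs were in the Sp5 cluster. Astn2 was at 25.9 and 71.0 CPM, a log2 ratio of 1.46 (1.27 to 1.65) against 0.22 in the other droplets. Within the Sp5 cluster it was 1.38 (1.17 to 1.60), in the other clusters 0.69, and in the Nr4a3 cluster, with 17 and 11 UMIs, -0.60 (-1.86 to 0.56). Nes, which encodes the intermediate filament nestin, was at 9.99 and 4.08 CPM, a log2 ratio of -1.29 (-1.79 to -0.81) against 0.13 in the other droplets, and -1.61 in the Sp5 cluster, where 103 and 49 of its UMIs were. Sema3c was at 40.2 and 68.1 CPM, a log2 ratio of 0.76 (0.60 to 0.93) against -0.07 (-0.12 to -0.01) in the other droplets. It was 0.58 (0.40 to 0.77) in the Sp5 cluster, 0.69 (0.22 to 1.19) in the other clusters and -0.03 (-0.70 to 0.63) in the Nr4a3 cluster. The Sp5 cluster held 36.6% of the PADI4 cKO and 28.9% of the WT members, and its part in these values was not tested beyond the ratios within it. Among its members 272 genes (3.15%) were above 0.5 and 221 (2.56%) below -0.5, and among those of the Nr4a3 cluster 115 (1.55%) and 146 (1.97%).

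**Figure D5:**
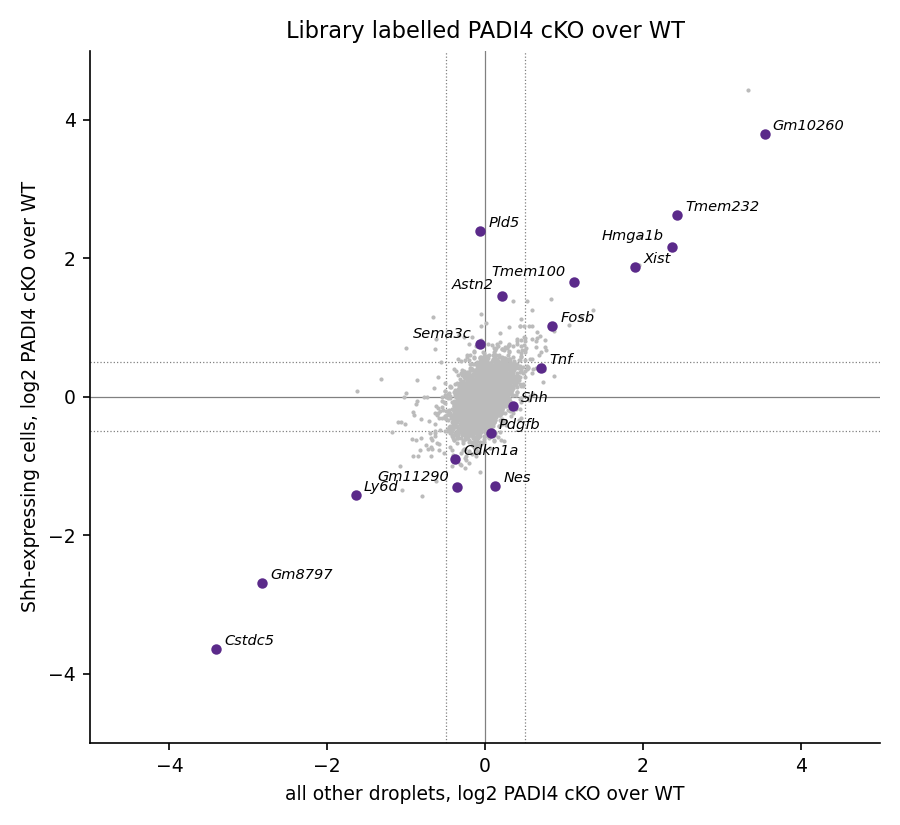
Log2 ratio of summed CPM, library labelled PADI4 cKO over WT, in Shh-expressing cells (y axis) and in all other droplets (x axis), for the 10594 compared genes except 5 beyond the axes (Ddx3y, Eif2s3y, Kdm5d, Stfa3 and Uty), 1 library per genotype. Dotted lines mark 0.5. Gm10260, Hmga1b and Cstdc5 lie along the diagonal, while Pld5 (2.40) and Astn2 (1.46) lie above the centre and Nes (-1.29) below it.

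Immediate early genes lay on both sides between the libraries. Of 23 compared, Fos, Fosb, Egr1 and Klf4 were above 0.5 and Egr2 and Hspa1a below -0.5, with a list median of 0.08 against -0.01 over all genes. In all 15 of the 23 were higher in the library labelled PADI4 cKO, and in the other droplets 14, with a median of 0.11. Fosb was at 72.9 and 148.4 CPM, a log2 ratio of 1.02 (0.91 to 1.14), and 0.85 in the other droplets. Fos was at 104.8 and 162.2 CPM, a log2 ratio of 0.63 (0.53 to 0.73), and 0.45 in the other droplets. Within the Nr4a3 cluster Fos was 0.27 (0.04 to 0.49) and Egr1 -0.01 (-0.22 to 0.21), and within the Sp5 cluster 0.86 (0.69 to 1.03) and 0.94 (0.75 to 1.14). Others in the Nr4a3 cluster were farther from 0 in both directions, with Fosb at 0.74, Klf4 at 0.62, Atf3 at -0.59, Hspa1b at -0.90 and Hspa1a at -1.05. In the Sp5 cluster Dusp1 was at 1.58 (1.04 to 2.19), Fosb at 1.19, Ier3 at 0.88 and Junb at 0.66. Among those lower there were Egr3 at -0.32 and Hspa1a at -0.35. In the other clusters Dusp1 was at -0.98 (-1.49 to -0.48). These genes also respond to tissue dissociation, and its part was not tested.

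The cell cycle lists differed by little between the libraries, and in opposite ways. Of 42 S phase genes, 41 were higher in the library labelled PADI4 cKO, with a median log2 ratio of 0.19, beside 48.0% of all genes, and in the other droplets 40 were higher with a median of 0.16. Of 52 G2M genes, 6 were higher, with a median of -0.16, and 4 in the other droplets with -0.13. Mcm6, a replication licensing gene, was at 137.9 and 163.0 CPM, and Mki67, a marker of cycling cells, at 639.1 and 487.3 CPM. Cdkn1a, which encodes the cell cycle inhibitor p21, was at 49.2 and 26.3 CPM, a log2 ratio of -0.90 (-1.10 to -0.71), and -0.38 in the other droplets. Most of its UMIs, 447 in WT and 243 in the library labelled PADI4 cKO, lay outside the Nr4a3 and Sp5 clusters, where its ratio was -1.06 (-1.29 to -0.83). Within these clusters Cdkn1a was at -0.37 (-0.97 to 0.20) in the Nr4a3 cluster and -0.00 (-0.57 to 0.58) in the Sp5 cluster. Of the 17 ectodysplasin and NF-kB genes, 16 were higher in the library labelled PADI4 cKO with a median of 0.14 (13 and 0.07 in the other droplets). Over all members 0 of them were past 0.5, but within the Sp5 cluster several were. There Birc3 was at 1.69 (0.95 to 2.57), Icam1 at 1.24 (0.88 to 1.62), Relb at 0.77 (0.44 to 1.12) and Nfkbia at 0.76 (0.63 to 0.88). Others were lower there, with Nfkbib at 0.11 and Traf6 at 0.02. In the Nr4a3 cluster Birc3, Icam1, Relb and Nfkbia were at -0.02, -0.10, -0.15 and -0.02. Over all members, no gene of the Hedgehog, Wnt, BMP, Notch or matrix transcription factor lists was past 0.5 in either direction. Within clusters some were, counting genes of these lists with at least 20 UMIs over both libraries. In the Nr4a3 cluster 4 of 88 were above 0.5 and 7 below -0.5, in the Sp5 cluster 5 and 3 of 95, and in the other clusters 3 and 12 of 97. The shares over all genes at this minimum of 20 UMIs were not worked out. Some of the genes counted had intervals that include 0. Among them were Rfng at 0.69 (-0.13 to 1.56) in the Nr4a3 cluster and Wnt3a at -0.92 (-2.10 to 0.19) in the Sp5 cluster. In the Nr4a3 cluster Sox9 was at -1.77 (-2.57 to -1.08), Fst, a secreted activin and BMP antagonist, at -1.81 (-2.65 to -1.08) and Gli1 at 0.66 (0.26 to 1.06). Foxq1 had opposite directions, with 1.66 (0.77 to 2.72) in the Nr4a3 cluster and -1.20 (-1.88 to -0.55) in the Sp5 cluster, where Msx1 was at 1.06 (0.64 to 1.51).

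With only the cells in which Xist but no Y-linked gene was counted, 157 in WT and 634 in the library labelled PADI4 cKO, Xist and Tsix drew level, at log2 ratios of 0.12 and 0.11. Shh was then -0.10 (-0.21 to 0.01), Scube1 0.03 (-0.15 to 0.22), Tnf -0.01 (-0.31 to 0.32) and Nr4a3 -0.06 (-0.47 to 0.39), so the higher Tnf and Nr4a3 of the library labelled PADI4 cKO were not seen among these cells. Astn2 (1.44), Pld5 (2.47), Tmem232 (2.58) and Nes (-1.10) kept their directions, on fewer WT UMIs. In this setting 459 of 9767 genes (4.70%) were above 0.5 and 190 (1.95%) below -0.5, a split of 70.7% above against 49.9% with all cells. Of these, 87 above and 31 below were also past the limits with all cells. The WT sums were smaller here. The share that counting error alone would place past these limits was not worked out for this setting.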

How the data were processed

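The authors deposited raw counts of UMIs, whole numbers per barcode for 32285 genes with empty droplets included, made from Chromium 3′ v3.1 libraries with Cell Ranger 7.1.0 (file header) against mm10 (submitters' processing notes, which also name Scanpy). No normalization or filter had been applied to these counts. The study's CellBender step was not applied here, and whether intronic reads were counted is not given in the sources used here. Both libraries were placed in their groups by the genotype label.

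The rule on droplets, Shh and keratins was applied to raw counts. UMIs were summed over the cells of a set and scaled to 1000000 (CPM), 0.5 UMI was added to each sum, and log2 ratios were given exact conditional binomial intervals at 95%. Shares have exact binomial (Clopper-Pearson) intervals. Genes with at least 100 UMIs in the Shh-expressing cells, found or expected at the level of the other droplets, were compared. A gene was called past 2-fold where its ratio was over 1 in size with the same sign in both libraries, and past 0.5, the study's threshold, between libraries. There is 1 library per genotype, so no test was run. Cells were clustered with the Leiden algorithm on 1000 variable genes, as many as in the study, with 50 components, 15 neighbours and resolution 1.0. Unlike in the study, the 6 markers and the cell cycle and PADI genes were left out, and cell cycle scores were regressed out in place of the harmony correction, so these clusters can differ from the study's. Scrublet's automatic doublet threshold was 0.53 in WT, which marked too few cells, so 0.176, the value of the PADI4 cKO library, was applied to each, a choice made on seeing this. Doublets were left out only as an alternative. A library of 609 or 636 cells held 11214988 or 13493221 UMIs of Shh-expressing cells, which sets the counting precision.

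Genes are named where they are markers, belong to the gene lists, or are among the 15 highest and 10 lowest against other droplets (genes of the rule left out), the 10 highest and 10 lowest against Shh-zero cells, and the 10 highest and 10 lowest between libraries by the interval bound nearest 0. Dcn, Cldn10, Erbb4 and Tll1 in the cluster comparison were named after their values were seen. Some genes of the lists and rankings are not reported here. The members, lists and tests were chosen with earlier results of these data known. On simulated counts with genes changed 4-fold against other droplets (10976 genes), 100.0% of the changed genes and 0% of the unchanged ones were called. With genes changed 2-fold between libraries (10577 genes), 100.0% were recovered and 0.279% and 0.308% of unchanged genes lay past 0.5. Python 3.11.15, NumPy 2.4.6, SciPy 1.17.1, pandas 2.3.3, Scanpy 1.11.5 and leidenalg 0.10.2 were used.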

Additional observations from a re-analysis of the deposited data

Results flagged for a closer look

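Sema3c was higher in the library labelled PADI4 cKO than in WT among the Shh-expressing cells, with a log2 ratio of 0.76 (0.60 to 0.93), and slightly lower in the other droplets (-0.07, -0.12 to -0.01). Pdgfb, a platelet-derived growth factor gene, was lower among the Shh-expressing cells, at 10.5 CPM in WT and 7.26 CPM in the library labelled PADI4 cKO with a log2 ratio of -0.53 (-0.94 to -0.14), and 0.07 in the other droplets. The difference between these sets was not tested. Over all compared genes, 20 were past 0.5 in opposite directions in the 2 sets.

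The medulla limit left out 34.3% of the WT and 42.1% of the PADI4 cKO droplets with at least 2 Shh UMIs, which the comparisons of the members do not use. These 361 and 512 droplets held Shh at 286.4 and 270.1 CPM, a level to which the shared minimum of 2 Shh UMIs contributes, with Lef1 at 1207 and 1292 CPM, Msx1 at 241.8 and 319.0 CPM and Mt4, a gene of the limit itself, at 521.5 and 578.4 CPM. Scube1 was lower in them than in the members, at 69.7 and 60.9 CPM against 113.2 and 107.8 CPM, while Wnt10b was at 100.4 and 107.2 CPM against 104.2 and 99.2 CPM and Ascl4 at 32.6 and 40.6 CPM against 40.2 and 48.0 CPM.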

How the results depend on the processing

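The share of Shh-expressing cells followed the Shh minimum, with 11.3% (WT) and 12.6% (PADI4 cKO) at 1 UMI, 5.67% and 6.40% at 3 UMIs, and 4.36% and 4.39% with droplets thinned to 2000 UMIs and a minimum of 1 UMI. UMI minima of 1000 and 4000, the study's ribosomal and hemoglobin limits and the removal of doublets moved it by less than its interval. Against other droplets, a minimum of 300 UMIs per gene left 90 genes above and 341 below 2-fold, fewer genes being compared. Between the libraries, 313 genes were above 0.5 and 342 below -0.5 at 50 UMIs per gene, 72 and 31 at 300 UMIs, 459 above with Xist cells only and 272 above in the Sp5 cluster, a setting chosen after seeing the data, as was the Nr4a3 cluster. Without thinning, 90.1% and 87.4% of the members had a UMI of Mki67 or Top2a. Among values whose interval left out 0, directions that turned were Ptch1 against Shh-zero cells at resolution 0.5 (0.03, PADI4 cKO), Ly6d with empty-droplet UMIs subtracted (6.88), Nr4a3 (-0.06) and Tnf (-0.01) with Xist cells only, Astn2 (-0.60), Nes (1.59) and Sema3c (-0.03) in the Nr4a3 cluster and Shh in the Sp5 cluster (0.05). Signs also turned for values near 0, among them Scube1 between the libraries with Xist cells only (0.03) and in the Sp5 cluster (0.17), Wnt10b in the Sp5 cluster (0.14), and Gli1 in WT against Shh-zero cells at 3 Shh UMIs (-0.06) and at resolution 2.0 (-0.18). The subtraction set sums that fell below 0 to 0, so the Ly6d value is not read as a reversal. Astn2 and Nes rested on few UMIs in the Nr4a3 cluster, and for the others the cause was not tested. Of the values that summarise a comparison, 56 kept within the limits used and 16 moved. No paired analysis was possible because there is 1 library per genotype.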
